A study of Mus musculus with 18 samples.

Results

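The promoters of 6 mouse genes were followed across 18 ATAC-seq libraries. They were the tachykinin precursor genes Tac1 and Tac2, the tachykinin receptor genes Tacr1 and Tacr3, and Nos1 and Chodl, which together with Tacr1 are known from mouse cortex as markers of somatostatin cells with long-range axons. The 6 were chosen by name: each had 1 promoter window in the deposited count table, so they made up 6 of its 26065 distinct windows. None of these windows overlapped another window, and all 6 genes passed the filter on low counts in every fit.

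Tachykinins are short neuropeptides cut from larger precursors and released with classical transmitters. Substance P and neurokinin A come from Tac1, neurokinin B comes from mouse Tac2, and they act on G protein-coupled receptors that raise calcium, NK1 encoded by Tacr1 and NK3 encoded by Tacr3. Nos1 encodes neuronal nitric oxide synthase, which makes the diffusible messenger nitric oxide, and Chodl encodes chondrolectin, a membrane protein of the C-type lectin family. In the mouse central amygdala (CeA), a nucleus that drives learned defensive responses, Tac2 neurons are known for a role in fear memory.

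ATAC-seq marks accessible DNA, because the Tn5 transposase cuts it and leaves sequencing adapters there. All mice were C57BL/6J and 2 to 3 months old, and every library started from 50000 sorted nuclei. SOM+ nuclei carried a nuclear GFP in somatostatin cells and were gated on it; they formed 4 groups of 2 libraries, CeA SOM+ fear (fear-conditioned mice), CeA SOM+ control, cortex SOM+ fear and cortex SOM+ control, all labelled wild type for genotype. The bulk nuclei were sorted with a DNA stain alone, so they hold all cell types of the dissection; they formed CeA bulk KO and cortex bulk KO (3 libraries each, Erbb4 knocked out in SOM+ cells) and CeA bulk WT and cortex bulk WT (2 libraries each), all labelled control for treatment. WT was taken from the sample titles, since the genotype entry of the WT libraries reads as knockout too. The dissected cortex was prefrontal, per the labels' protocols. No label or header names the driver of the GFP or of the knockout or the number of mice per library, and the sort is described as giving technical replicates, so p-values measure only the spread between these libraries.

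Promoter counts per library ran from 2648959 to 14668694. A promoter's level is given as counts per 1e+06 promoter counts after TMM scaling (CPM). In bulk nuclei, a change in the share of a cell type and a change in accessibility per nucleus cannot be told apart. Y-linked counts went against the labelled sex in 4 bulk libraries: over 5 Y-linked windows, KO 2 of each region, labelled male, had 0 counts, and WT 1 of each region, labelled female, had 251 in CeA and 639 in cortex. An exchange of KO 2 and WT 1 within each region would fit every sex label. Whether the sex labels or the titles are wrong was not tested, so the KO or WT status of these 4 libraries is uncertain. Later fits with the sex read from Y-linked windows keep the titles as given. In the SOM+ groups the library numbered 1 was labelled male and the library numbered 2 female. Cortex bulk KO 3 stood apart from the other cortex bulk KO libraries, with the highest Tacr3, Tacr1 and Chodl levels of all 18 libraries. Results that rest on these libraries are given with and without them.

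The sorted identity was checked on marker promoters. Summed over 8 GABAergic neuron genes, levels overlapped in CeA, with 549 to 653 CPM in SOM+ and 403 to 600 CPM in bulk libraries. In cortex they were 625 to 690 CPM in SOM+ and 166 to 190 CPM in bulk libraries. Over 10 glutamatergic neuron genes they were 184 to 199 CPM in CeA SOM+ and 231 to 298 CPM in CeA bulk libraries, and 178 to 225 CPM in cortex SOM+ and 514 to 667 CPM in cortex bulk libraries. The promoter of Sst, the somatostatin gene that defines the sorted cells, did not set them apart: it had 11.6 to 26.4 CPM in CeA SOM+ and 12.7 to 25.7 CPM in CeA bulk, and 14.5 to 18.4 CPM in cortex SOM+ and 7.81 to 18.6 CPM in cortex bulk libraries. Summed over 15 somatostatin interneuron genes, Sst included, levels were 285 to 316 CPM in CeA SOM+ and 321 to 403 CPM in CeA bulk. In cortex the sums were 676 to 742 CPM in SOM+ and 358 to 492 CPM in bulk libraries. Over 14 CeA and striatal type neuron genes, CeA SOM+ had 406 to 484 CPM and CeA bulk 501 to 697 CPM. In CeA, neither of these sums was higher in the sorted nuclei. The libraries also differed in background. Promoters of olfactory receptor genes, which are closed in brain, had a median of 0.59 to 0.702 CPM per kb in cortex SOM+ against 1.69 to 2.57 CPM per kb in cortex bulk libraries, and 0.917 to 1.64 CPM per kb in CeA SOM+ against 1.51 to 2.38 CPM per kb in CeA bulk libraries.

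The count windows lie on mm9. Tac1 was counted over chr6:7503885-7506070, Tac2 over chr10:127160534-127163447, Tacr1 over chr6:82351469-82353468, Tacr3 over chr3:134490971-134492970, Nos1 over chr5:118315848-118317847 and Chodl over chr16:78930193-78932192. The Tac1 and Tac2 windows were 2186 and 2914 bases wide and the other 4 were 2000 bases, so genes are compared with each other per kb. All 6 genes matched the RefSeq promoter table of build GRCm38.p6, and the 250 bases before each start were read from it; the annotated starts belong to that build and were not matched to the mm9 windows. Of the 4 sequences below, Tac1, Tacr3 and Chodl are shown because their difference between sorted and bulk nuclei depended on region. Nos1 is shown because its cortex SOM+ control libraries lay above the cortex bulk WT ones, a difference that was not called. Capitals mark matches, on either strand, to 8 motifs: the CRE TGACGTCA, its core TGACG, the E-box CACGTG, the AP-1 site TGACTCA, the TATA box TATAAA, the GC box GGGCGG, the CCAAT box CCAAT and the homeodomain core TAATTA.
Tac1, chr6:7554811-7555060, plus strand: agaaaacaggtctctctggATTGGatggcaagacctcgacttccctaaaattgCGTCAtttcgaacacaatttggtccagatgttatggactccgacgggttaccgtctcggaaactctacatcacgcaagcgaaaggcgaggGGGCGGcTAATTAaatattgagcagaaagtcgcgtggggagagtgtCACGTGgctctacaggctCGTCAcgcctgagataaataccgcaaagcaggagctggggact
Tacr3, chr3:134828757-134829006, plus strand: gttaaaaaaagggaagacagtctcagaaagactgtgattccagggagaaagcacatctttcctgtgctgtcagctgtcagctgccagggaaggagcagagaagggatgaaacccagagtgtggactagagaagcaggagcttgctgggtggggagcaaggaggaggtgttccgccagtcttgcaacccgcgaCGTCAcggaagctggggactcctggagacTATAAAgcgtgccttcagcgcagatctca
Nos1, chr5:117866589-117866838, plus strand: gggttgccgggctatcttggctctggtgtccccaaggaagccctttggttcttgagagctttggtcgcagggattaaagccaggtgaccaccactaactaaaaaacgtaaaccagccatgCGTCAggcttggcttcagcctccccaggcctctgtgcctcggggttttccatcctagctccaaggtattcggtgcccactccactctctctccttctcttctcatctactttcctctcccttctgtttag
Chodl, chr16:78930698-78930947, plus strand: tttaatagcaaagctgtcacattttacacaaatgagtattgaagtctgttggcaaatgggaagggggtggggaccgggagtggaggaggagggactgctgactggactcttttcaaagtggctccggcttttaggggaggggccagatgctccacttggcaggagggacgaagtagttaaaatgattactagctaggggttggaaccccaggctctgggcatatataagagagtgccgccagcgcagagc
Read against one another, these promoters differ most in CpG content. The Tac1 stretch held 17 CpG dinucleotides with an observed to expected ratio of 1.05, at the 96.3 percentile of 32851 RefSeq promoters. Tacr1, Tacr3, Nos1 and Chodl had ratios of 0.33 to 0.4, around the median of 0.37. Tac2 was lower, with a ratio of 0.14 at the 21.4 percentile. The letters TGACG or CGTCA stood in the Tac1, Tacr1, Tacr3 and Nos1 stretches, and in 17.77% of all promoters of this length; the full CRE stood in none of the 6 and in 1.55% of all. Tac1 also held a GC box (32.74% of all promoters), a CCAAT box (33.85%), an E-box (6.02%) and a homeodomain core (4.84%), and Tacr3 a TATA box at -29 to -24 from its start (12.37%). Chodl and Tac2 held none of the 8 motifs. A match is a description of letters only. The Nos1 stretch ends in a run mostly of C and T followed by AG, the form of a splice acceptor. Whether its annotated start is the main start of Nos1 was not checked.

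Across the 8 groups, Tac1, Tacr1, Tacr3 and Chodl were lowest in cortex SOM+ nuclei, while Tac2 and Nos1 had their highest mean levels in SOM+ groups. Counts behind single values ran from 14 (Nos1 in cortex bulk KO 3, 95% exact Poisson interval 7.7 to 23.5) to 347 (Tacr3 in the same library, 311.4 to 385.5), intervals that cover counting error only. Per kb and as the mean over the 18 libraries, the levels were 13.3 CPM per kb for Tacr1, 12.3 for Tacr3, 11.4 for Chodl, 7.63 for Tac1, 4.27 for Nos1 and 3.68 for Tac2. For Tac1 the group means ran in the order cortex bulk WT, cortex bulk KO, CeA bulk WT, CeA bulk KO, CeA SOM+ control, CeA SOM+ fear, cortex SOM+ fear and cortex SOM+ control, and the libraries of neighbours overlapped everywhere except between CeA SOM+ fear and cortex SOM+ fear. For Tac2 and Nos1 every neighbour in the order overlapped. For Tacr1, Tacr3 and Chodl the means of the 4 bulk groups came first, their neighbours overlapping in turn, then those of the 2 CeA SOM+ groups, and the 2 cortex SOM+ groups came last, with every library below every CeA SOM+ library. For Tacr1 every CeA SOM+ library was also below every bulk library. For Chodl they overlapped, since CeA SOM+ fear 2 had 18.1 CPM and cortex bulk KO 1 had 17.3 CPM. For Tacr3 they overlapped too, with 20.2 CPM in CeA SOM+ fear 1 and 19.2 CPM in CeA bulk KO 2, and the libraries of the CeA and cortex bulk groups overlapped, although both cortex bulk means were the higher ones.

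**Figure D1:**
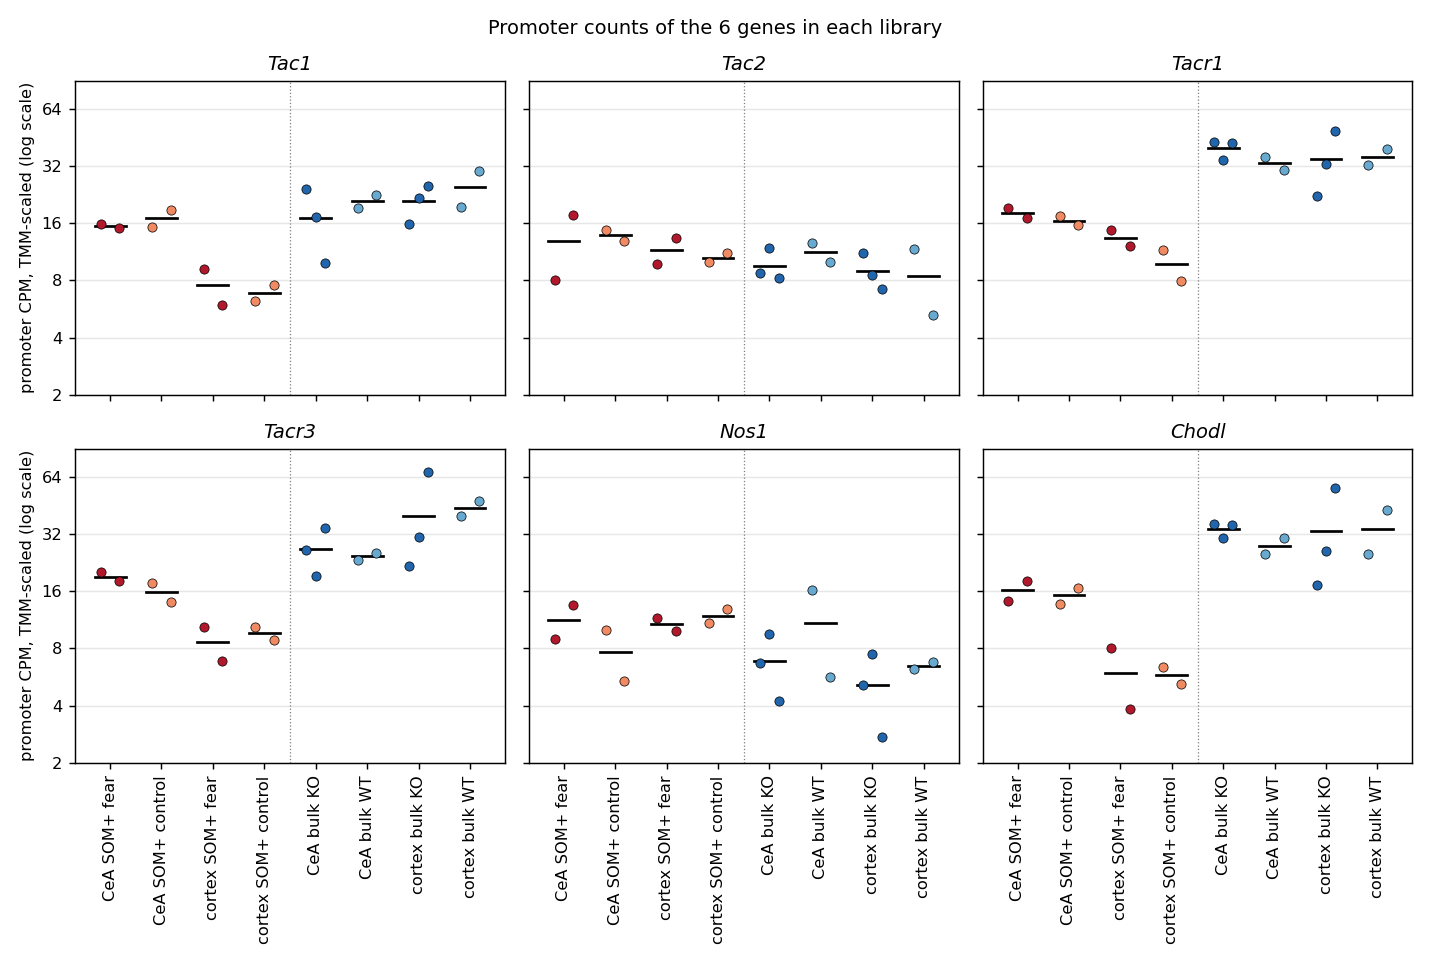
Promoter level of each gene in CPM after TMM scaling (log axis) in every library, by group; points are libraries and bars are group means. Tac1, Tacr1, Tacr3 and Chodl sit lowest in the cortex SOM+ groups, and Tac2 and Nos1 do not.

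The comparison of SOM+ control with bulk WT nuclei asks how the promoters of sorted somatostatin cells differ from those of the whole tissue. The sorted nuclei came from the GFP line and the bulk nuclei from the Erbb4 line, so sort and mouse line cannot be told apart. In cortex, 4 of the 6 promoters were lower in SOM+ nuclei (Tac1, Tacr1, Tacr3 and Chodl), by log2 fold changes of -1.82 to -2.53, and 0 were higher. All calls are edgeR quasi-likelihood F tests with Benjamini-Hochberg adjustment over all windows, at an adjusted p under 0.05. In that comparison 62.1% of 25246 windows were called, 31.5% higher and 30.6% lower, so a call by itself was common. The median of the 6 was -1.85 and that of all windows -0.07.

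Among the ligand genes, Tac1 had 6.25 and 7.56 CPM in cortex SOM+ control libraries, against 19.4 and 30.4 CPM in cortex bulk WT libraries. Both SOM+ libraries lay below both bulk libraries, with a log2 fold change of -1.82 ± 0.33 (SE, adjusted p 8.24e-06). Tac2 had 10.03 and 11.1 CPM in SOM+ control against 11.7 and 5.27 CPM in bulk WT, and the libraries overlapped. Its difference was 0.36 ± 0.34 (95% interval -0.33 to 1.05, adjusted p 0.369).

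Of the receptor genes, Tacr1 had 11.6 and 7.91 CPM in cortex SOM+ control libraries and 32.3 and 39.2 CPM in cortex bulk WT libraries. Tacr3 had 10.4 and 8.86 CPM in SOM+ control and 39.8 and 47.9 CPM in bulk WT. For both receptors every SOM+ library was below every bulk library, with log2 fold changes of -1.87 ± 0.27 for Tacr1 (adjusted p 2.01e-07) and -2.19 ± 0.33 for Tacr3 (adjusted p 3.2e-07).

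Of the markers of long-range somatostatin cells, Tacr1 (above) and Chodl were called lower in cortex SOM+ nuclei, and Nos1 was not called. Chodl had 6.36 and 5.20 CPM in cortex SOM+ control against 25.2 and 42.8 CPM in cortex bulk WT, the largest fall of the 6 at -2.53 ± 0.36 (adjusted p 1.15e-07). Nos1 had 10.9 and 12.9 CPM in SOM+ control and 6.23 and 6.75 CPM in bulk WT. Its SOM+ libraries lay above the bulk ones, but the difference of 0.87 ± 0.42 (interval 0.02 to 1.72) did not pass the test (adjusted p 0.0696); it passed with limma and cyclic loess scaling (adjusted p 0.0191), with a replicate block (0.0443), in a fit of SOM+ control and bulk WT libraries alone (0.044) and without cortex bulk KO 3 (0.0294). The 4 falls passed the test under every scaling, tool and left-out library tried.

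In CeA the same sort comparison called 1 of the 6, Tacr1, lower in SOM+ nuclei, where 23.2% of all windows were called, 13.7% higher and 9.58% lower. Of the windows called 58.8% were higher, and 40.7% under total count scaling, which moved the median of all windows to -0.22 in CeA and -0.31 in cortex. Tacr1 had 17.5 and 15.6 CPM in CeA SOM+ control against 35.8 and 30.5 CPM in CeA bulk WT, a log2 fold change of -1.03 ± 0.27 (adjusted p 0.00547), and the libraries did not overlap. The call was lost without CeA SOM+ control 1 (adjusted p 0.0686), without CeA bulk WT 1 (0.187) and without the 4 libraries that go against their sex label (0.253), where the differences were -1.01, -0.73 and -0.75 in the same order. Chodl had 13.8 and 16.7 CPM in SOM+ control and 25.1 and 30.5 CPM in bulk WT, apart, with -0.88 ± 0.35 (adjusted p 0.0598); Tacr3 had 17.6 and 14.0 CPM against 23.5 and 25.5 CPM, with -0.64 ± 0.33 (adjusted p 0.161). Chodl passed under total count scaling (0.0258), with no filter on low counts (0.0488), with a replicate block (0.0157), in the fit of SOM+ control and bulk WT libraries alone (0.00918), and without cortex bulk KO 1 (0.0171) or KO 3 (0.00639), and Tacr3 in that smaller fit (0.0333) and without cortex bulk KO 3 (0.0473). Tac1 had 15.3 and 18.9 CPM in SOM+ control and 19.2 and 22.5 CPM in bulk WT (-0.30 ± 0.32), Tac2 14.8 and 12.9 CPM and 12.7 and 9.95 CPM (0.37 ± 0.35), and Nos1 9.95 and 5.39 CPM and 16.3 and 5.64 CPM (-0.47 ± 0.44), and none of these 3 passed.

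Whether the sort difference itself differed between regions was tested as an interaction, CeA minus cortex. It was positive for Tac1 (1.53 ± 0.46, adjusted p 0.0128), Tacr3 (1.54 ± 0.46, adjusted p 0.0127) and Chodl (1.65 ± 0.49, adjusted p 0.0129), that is, these promoters were lower in SOM+ than in bulk nuclei by more in cortex than in CeA. Windows called numbered 24.7% of all, 9.46% higher and 15.2% lower; higher ones made up 38.4% of the calls, 49.6% under total count scaling and 53.8% with limma and cyclic loess. Each of the 3 calls was lost without any one of 3 libraries: Tac1 without CeA SOM+ control 2 (adjusted p 0.0956), cortex SOM+ control 1 (0.0927) or cortex bulk WT 2 (0.0917); Chodl without the same libraries (0.104, 0.0516 and 0.0807); and Tacr3 without CeA SOM+ control 1 (0.0597), cortex SOM+ control 1 (0.0528) or CeA bulk WT 2 (0.0567). The differences then were 1.23 to 1.26 for Tac1, 1.30 to 1.64 for Chodl and 1.44 to 1.51 for Tacr3. Without the 4 libraries against their sex label, Tac1 (1.79, 0.0528) and Tacr3 (1.69, 0.0568) no longer passed. The interaction of Tacr1 was 0.84 ± 0.38 (adjusted p 0.102), that of Nos1 -1.34 ± 0.61 (0.0993) and that of Tac2 0.01 ± 0.49 (0.991). Tacr1 passed with limma and cyclic loess (0.0137) and without cortex bulk KO 3 (0.0464), and Nos1 without CeA SOM+ control 1 (0.042), CeA bulk WT 2 (0.0291) or cortex bulk KO 3 (0.0386).

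**Figure D2:**
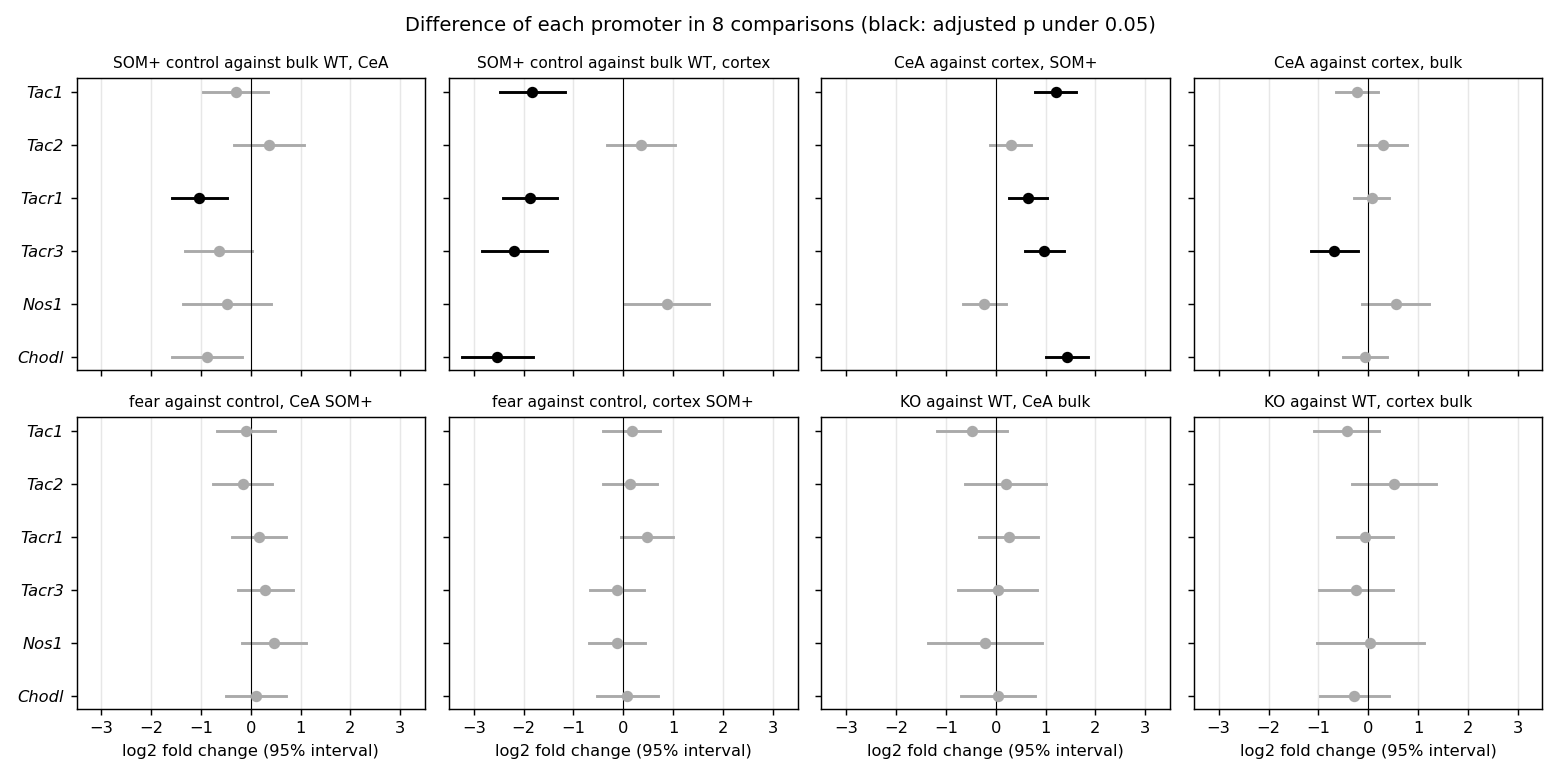
Log2 fold change of each promoter with its 95% interval in 8 comparisons, the group named first over the second; black marks an adjusted p under 0.05. In cortex, Tac1, Tacr1, Tacr3 and Chodl fall to the left for SOM+ against bulk, and the fear and KO panels hold no black point.

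Between regions, CeA SOM+ nuclei were set against cortex SOM+ nuclei, with fear and control libraries together. Of the 6 promoters 4 were higher in CeA (Tac1, Tacr1, Tacr3 and Chodl) and 0 lower, where 48.3% of 25157 windows were called, 21.1% higher and 27.1% lower. Under total count scaling the higher share of the windows called was 61.5%, against 43.8% with TMM, and the median of all windows moved to 0.26, against 0.04. The 4 calls held under each alternative fit, leaving out each library included.

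Tac1 had 15.96, 15.1, 15.3 and 18.9 CPM in CeA SOM+ libraries (fear 1 and 2, then control 1 and 2) and 9.20, 5.92, 6.25 and 7.56 CPM in cortex SOM+ libraries. The log2 fold change was 1.20 ± 0.21 (adjusted p 9.3e-08). Chodl, at 14.3, 18.1, 13.8 and 16.7 CPM in CeA and 8.03, 3.82, 6.36 and 5.20 CPM in cortex, had 1.43 ± 0.22 (adjusted p 9.64e-10). Every CeA library was above every cortex library for both genes.

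Tacr3 had 20.2, 18.1, 17.6 and 14.0 CPM in CeA SOM+ libraries, in the same order, and 10.4, 6.90, 10.4 and 8.86 CPM in cortex SOM+ libraries, a difference of 0.98 ± 0.20 (adjusted p 5.52e-06). Tacr1 had 19.3, 17.1, 17.5 and 15.6 CPM in CeA and 14.7, 12.1, 11.6 and 7.91 CPM in cortex, a difference of 0.65 ± 0.19 (adjusted p 0.00264). The regions did not overlap for either receptor. In the SOM+ fit the test pooled its spread over nearly all windows (100628 degrees of freedom), so these p-values do not carry a window's own spread. Exact two-sided permutation tests of the CPM gave p = 0.0286 for each of the 4 genes, the smallest value that 70 arrangements allow. Regions that do not overlap always give this value, so it adds nothing to the non-overlap.

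Tac2 and Nos1 did not pass between regions in SOM+ nuclei. Tac2 had 8.07, 17.8, 14.8 and 12.9 CPM in CeA and 9.75, 13.4, 10.03 and 11.1 CPM in cortex (0.30 ± 0.21, adjusted p 0.223), and passed only without CeA SOM+ fear 1 (0.55, adjusted p 0.0334). Nos1 had 8.99, 13.5, 9.95 and 5.39 CPM in CeA and 11.6, 9.86, 10.9 and 12.9 CPM in cortex (-0.23 ± 0.22, adjusted p 0.391). For both genes the regions overlapped, with exact permutation p = 0.371 each.

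In bulk nuclei the region difference took another form. Of the 6 only Tacr3 was called, lower in CeA (-0.68 ± 0.23, adjusted p 0.0436), where 16.9% of windows were called, 6.9% higher and 9.98% lower (higher ones made up 40.9% of the calls, 56.7% under total count scaling and 28.2% without the 4 libraries against their sex label). Tacr3 ran from 19.2 to 34.6 CPM in the 5 CeA bulk libraries with a median of 25.5, and from 21.7 to 67.8 CPM in the 5 cortex bulk libraries with a median of 39.8, so the regions overlapped, and the exact permutation test of the CPM gave p = 0.0794. The call was lost with DESeq2 size factors (-0.70, adjusted p 0.0515), under total count scaling (-0.56, 0.0603), without the 4 libraries against their sex label (-0.68, 0.242), and without CeA bulk KO 1 (0.0777), KO 2 (0.1), WT 1 (0.181) or WT 2 (0.237) or cortex bulk WT 1 (0.15) or WT 2 (0.242). The difference itself kept its sign and ran from -0.83 to -0.46 over all libraries left out in turn, with -0.78 to -0.58 where the call was lost. The other 5 differed by -0.23 ± 0.20 (Tac1), 0.29 ± 0.24 (Tac2), 0.07 ± 0.17 (Tacr1), 0.55 ± 0.32 (Nos1) and -0.07 ± 0.21 (Chodl) on the log2 scale. The difference between the SOM+ and the bulk region comparison was tested only as the interaction above, on control and WT libraries.

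The rank of a promoter within its own library gives a second view that no scaling factor enters. Ranked by CPM per kb, Chodl stood at the 23.2 to 35.4 percentile in cortex SOM+ libraries against the 48.9 to 75.7 percentile in cortex bulk libraries. Tacr3 stood at 32.7 to 40.4 against 53.7 to 80.0, Tacr1 at 35.3 to 46.5 against 54.4 to 72.5, and Tac1 at 28.3 to 36.2 against 45.7 to 59.1. Nos1 ranked higher in the sorted nuclei, at 39.3 to 44.0 in cortex SOM+ against 10.9 to 30.6 in cortex bulk libraries, and Tac2 at 31.8 to 37.8 against 15.6 to 28.3. None of these 6 ranges overlapped. How many of all windows were apart in rank was not counted, and 62.1% of windows were called for SOM+ control against bulk WT in cortex. Ranges apart are therefore not read as particular to these genes. In CeA the SOM+ and bulk ranges overlapped for Tac1, Tac2, Nos1 and Tacr3, and were apart for Tacr1 (49.1 to 52.0 against 61.4 to 70.0) and Chodl (46.1 to 50.5 against 57.8 to 65.9).

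**Figure D3:**
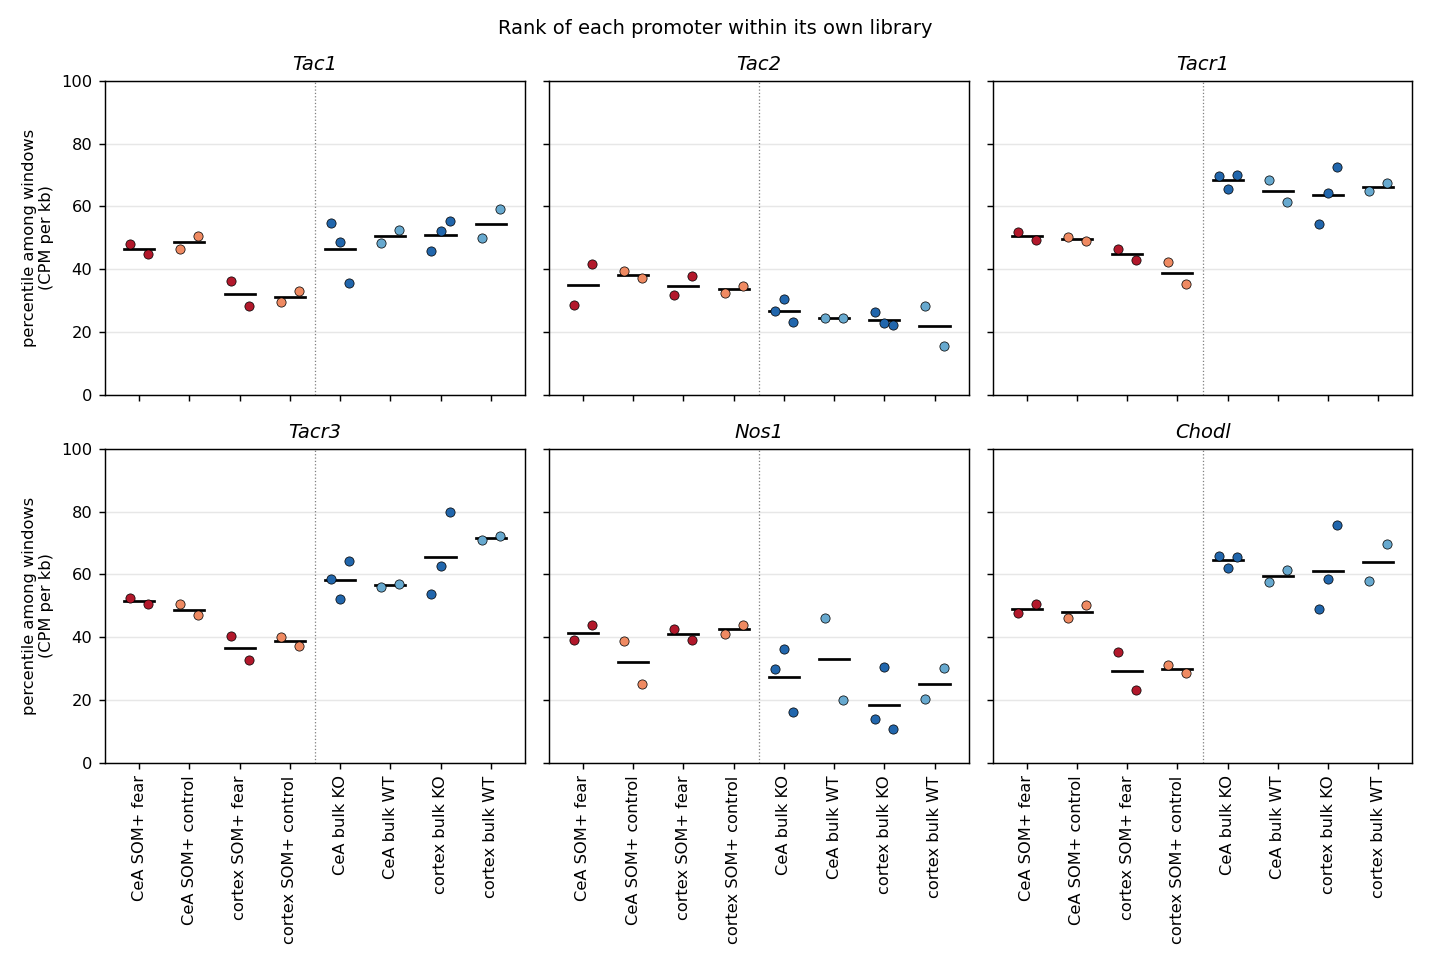
Percentile of each promoter among all windows of the same library, ranked by CPM per kb; points are libraries and bars are group means. In cortex, Tac1, Tacr1, Tacr3 and Chodl rank lower and Tac2 and Nos1 higher in SOM+ than in bulk libraries.

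Set against the background of closed promoters, the picture changed for the 4 genes that fell. As a multiple of the library's olfactory receptor median, Tac1 stood at 4.42 to 5.86 in cortex SOM+ control and 3.90 to 8.23 in cortex bulk WT libraries, and Tacr1 at 6.70 to 9.0 and 7.10 to 11.6, so both overlapped. Tacr3 stood at 7.50 to 8.0 in SOM+ control and 8.73 to 14.2 in bulk WT, and Chodl at 4.40 to 4.92 and 5.53 to 12.7, lower in SOM+ control in these libraries. Over all cortex SOM+ and cortex bulk libraries these ranges overlapped as well, with 5.09 to 8.0 against 4.23 to 19.3 for Tacr3 and 2.82 to 5.72 against 3.37 to 15.9 for Chodl. Nos1 stood at 8.42 to 10.9 in SOM+ control against 1.37 to 2.00 in bulk WT, and Tac2 at 5.32 to 6.45 against 1.07 to 1.76, and both stayed apart over all cortex libraries. In CeA, SOM+ control and bulk WT libraries overlapped for Tac1 (5.78 to 8.01 and 3.69 to 6.22), Tacr3 (6.50 to 7.26 and 4.93 to 7.70), Nos1 (2.50 to 4.11 and 1.70 to 3.41) and Chodl (5.68 to 7.75 and 5.28 to 9.20). Tacr1 was lower in SOM+ control (7.21 to 7.25 against 7.52 to 9.20), but overlapped over all CeA libraries (5.20 to 10.5 against 7.52 to 14). Tac2 was higher (4.12 to 4.19 against 1.82 to 2.06), also over all CeA libraries. Between regions in SOM+ nuclei, this multiple overlapped for Tac1 (4.21 to 8.01 in CeA, 3.99 to 6.00 in cortex), Tacr1 (5.20 to 10.5 and 6.70 to 10.5), Tacr3 (5.50 to 11 and 5.09 to 8.0) and Chodl (5.50 to 7.80 and 2.82 to 5.72). It was lower in CeA for Nos1 (2.50 to 4.90 against 7.27 to 10.9) and Tac2 (3.02 to 4.19 against 4.77 to 6.80). The median of all windows over the same background was 13.6 to 16.3 in cortex SOM+ against 3.57 to 5.37 in cortex bulk libraries, and 5.4 to 9.1 in CeA SOM+ against 3.93 to 5.87 in CeA bulk libraries. The part of this background in the differences between CPM values was not tested.

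**Figure D4:**
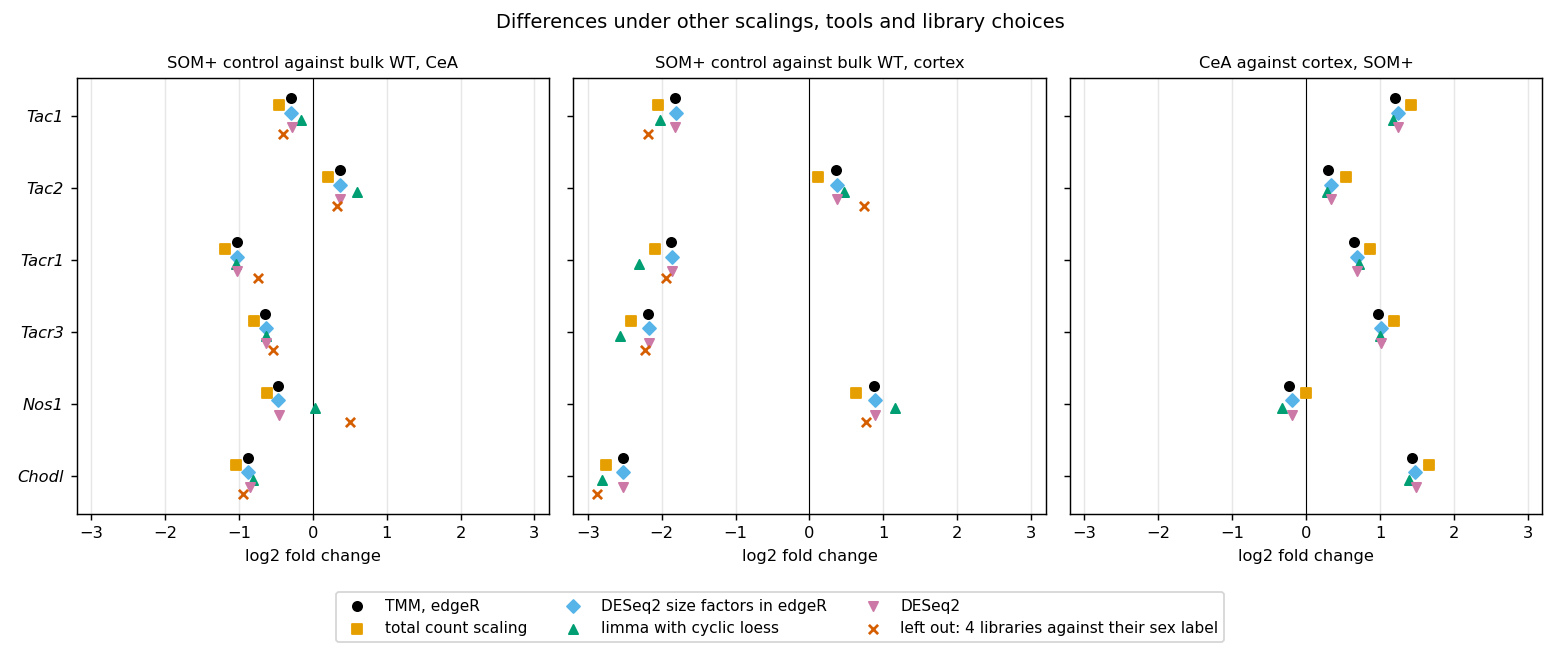
Log2 fold changes of the 6 promoters under 3 scalings in edgeR, 2 other tools and, where it applies, without the 4 libraries against their sex label. Nos1 changes side of 0 in CeA for SOM+ against bulk, and the 4 cortex falls keep theirs.

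Fear conditioning was compared with control in SOM+ nuclei, to ask whether learning altered these promoters. In CeA, in cortex, in their mean and in the interaction with region, 0 of the 6 promoters and 0 of 25157 windows were called (0% in each), with 598, 288, 530 and 371 windows at an unadjusted p under 0.05; DESeq2 called 0 too, with 348, 127, 276 and 196. Tac2 had 8.07 and 17.8 CPM in CeA SOM+ fear against 14.8 and 12.9 CPM in CeA SOM+ control, and the fear libraries lay on either side of the controls. The largest difference in CeA was that of Nos1, with 8.99 and 13.5 CPM in fear and 9.95 and 5.39 CPM in control libraries (0.47 ± 0.33, interval -0.17 to 1.12). In cortex it was that of Tacr1, with 14.7 and 12.1 CPM in fear and 11.6 and 7.91 CPM in control libraries (0.47 ± 0.27, interval -0.05 to 0.99), and these libraries did not overlap. For Tacr1 the mean difference of the regions was 0.31 ± 0.19 (interval -0.06 to 0.69, adjusted p 0.9998), and it was not called with the number as a block either. Tacr3 in CeA, with 20.2 and 18.1 CPM in fear and 17.6 and 14.0 CPM in control libraries, did not overlap either (0.29 ± 0.28). The share of all windows without overlap was not counted in any comparison. Non-overlap of 2 against 2 libraries is therefore not read as a fear effect. The other 5 log2 differences lay between -0.16 and 0.29 in CeA and between -0.13 and 0.17 in cortex. The adjusted p of every promoter was at least 0.9998.

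Knockout of Erbb4, the neuregulin receptor of interneurons, was compared with WT in bulk nuclei. The knockout was in SOM+ cells and bulk nuclei hold all cell types, so a change limited to SOM+ cells could be missed. The Erbb4 promoter had 28.8 to 39.6 CPM in CeA KO and 35.2 to 37.5 CPM in CeA WT libraries, and 26.02 to 41.4 CPM in cortex KO and 33.6 to 45.8 CPM in cortex WT libraries; a promoter window outside the deleted part would check nothing, and no label names the deleted part. Of the 6 promoters 0 were called, and of 25196 windows 0 (0%) in CeA, in cortex, in their mean and in the interaction, with 745, 823, 872 and 590 windows at an unadjusted p under 0.05; DESeq2 called 0 too, with 576, 622, 667 and 524. Tac1 had 24.1, 17.3 and 9.84 CPM in CeA KO against 19.2 and 22.5 CPM in CeA WT (-0.48 ± 0.34), and 15.9, 21.9 and 25.2 CPM in cortex KO against 19.4 and 30.4 CPM in cortex WT (-0.43 ± 0.32). Tac2 had 8.71, 11.8 and 8.24 CPM in CeA KO against 12.7 and 9.95 CPM in CeA WT, and 11.1, 8.53 and 7.23 CPM in cortex KO against 11.7 and 5.27 CPM in cortex WT, with fitted differences of 0.20 ± 0.39 in CeA and 0.52 ± 0.41 in cortex. These fits carry the labelled sex as a term. All KO libraries are labelled male, and the WT libraries of each region are labelled 1 male and 1 female. The group means of Tac2 ran the other way in CeA, at 9.58 CPM in KO and 11.3 CPM in WT, and its fitted differences turned to -0.30 in CeA and -0.017 in cortex with the sex read from Y-linked windows; the cortex value also turned to -0.12 without cortex bulk WT 2. No direction is therefore given for Tac2.

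The KO comparison in cortex depended on cortex bulk KO 3. Tacr3 had 21.7, 30.9 and 67.8 CPM in cortex KO and 39.8 and 47.9 CPM in cortex WT libraries, the highest value being KO 3, and Chodl had 17.3, 26.2 and 55.8 CPM in KO and 25.2 and 42.8 CPM in WT. With all libraries the differences were -0.24 ± 0.36 for Tacr3 and -0.28 ± 0.34 for Chodl. Without KO 3 they were -0.82 (adjusted p 0.0328) and -0.85 (adjusted p 0.0246), 984 windows were called in cortex against 0 with it, and 126 in the mean of both regions. With the sex read from Y-linked windows in place of the label, Tacr3 and Chodl stood at 0.03 and 0.06. In CeA, Tacr3 had 26.4, 19.2 and 34.6 CPM in KO and 23.5 and 25.5 CPM in WT (0.04 ± 0.38), and Chodl 36.4, 30.5 and 35.8 CPM in KO against 25.1 and 30.5 CPM in WT (0.05 ± 0.36 with the labelled sex), where KO 2 and WT 2 were level to 3 digits. Tacr1 had 42.9, 34.7 and 42.2 CPM in CeA KO and 35.8 and 30.5 CPM in CeA WT (0.26 ± 0.29), and 22.4, 33.0 and 49.0 CPM in cortex KO and 32.3 and 39.2 CPM in cortex WT (-0.06 ± 0.27). Nos1 had the widest interval, with 6.72, 9.55 and 4.22 CPM in CeA KO and 16.3 and 5.64 CPM in CeA WT (-0.21, interval -1.36 to 0.93), and 5.14, 7.45 and 2.73 CPM in cortex KO and 6.23 and 6.75 CPM in cortex WT (0.04, interval -1.03 to 1.12). The cortex difference of Nos1 was -0.68 with the sex read from Y-linked windows. As a multiple of the olfactory receptor median, Nos1 stood at 1.4 to 3.41 in CeA bulk and 0.78 to 2.14 in cortex bulk libraries. Tac2 stood at 1.78 to 2.22 in CeA bulk and 1.07 to 1.76 in cortex bulk libraries. Both genes thus lay near the background of closed promoters in bulk nuclei.

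Genes that act with tachykinins at the synapse were taken from a list of 22: the remaining ligand and receptor, the G proteins and phospholipases below the receptors, the arrestins and kinases that silence them, and the enzymes that make or degrade the peptides. In cortex 10 of 22 were higher and 6 lower in SOM+ control than in bulk WT nuclei, where 31.5% of all windows were higher and 30.6% lower, with a list median of 0.42 against -0.07 over all windows. The 3 with the smallest p were all higher: Arrb1, a beta-arrestin (1.94 ± 0.21, adjusted p 8.72e-10), Ece1, an endothelin-converting enzyme that also cleaves substance P (1.75 ± 0.21), and Grk6, a receptor kinase (1.52 ± 0.20). In CeA 3 were higher and 3 lower, where 13.7% of all windows were higher and 9.58% lower, led by Mme, the neprilysin gene, whose enzyme degrades substance P (-1.10 ± 0.27, adjusted p 0.00321). Between regions in SOM+ nuclei 0 were higher and 7 lower in CeA, where 21.1% of all windows were higher and 27.1% lower, led by Ace (-1.27 ± 0.16), a peptidase gene; in bulk nuclei 4 were higher and 5 lower (6.9% and 9.98% of all windows). The lower counts in cortex and between SOM+ regions and both counts in CeA were near these shares. Under fear or KO 0 of 22 were called in any comparison.

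The nitric oxide list held 21 genes, from the other synthases and their regulators to the soluble guanylate cyclases, cyclic GMP kinases and phosphodiesterases that act after nitric oxide. Its counts in the sort comparisons and between SOM+ regions lay near the shares of all windows just given. In cortex 8 were higher and 6 lower in SOM+ control than in bulk WT nuclei, against 31.5% and 30.6% of all windows (list median 0.30), among them Dynll1, whose protein binds neuronal nitric oxide synthase (1.61 ± 0.21), Pde2a (1.48 ± 0.21) and Pde1a (-1.49 ± 0.21). In CeA 3 were higher and 3 lower, against 13.7% and 9.58% of all windows, with Pde2a again higher (1.02 ± 0.21, adjusted p 0.000444). In SOM+ nuclei 3 were higher and 6 lower in CeA than in cortex, against 21.1% and 27.1% of all windows, and Gucy1b2, a cyclase subunit gene, had -1.49 ± 0.17; in bulk nuclei 5 were higher and 5 lower (6.9% and 9.98% of all windows), and under fear or KO 0.

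Other somatostatin interneuron markers moved apart from the 4 genes that fell in cortex. Of 15 such genes, 10 were higher and 3 lower in cortex SOM+ control than in cortex bulk WT nuclei, where 31.5% of all windows were higher and 30.6% lower, with a list median of 1.41: Cort, the cortistatin gene, rose by 3.26 ± 0.25, and Lhx6, a transcription factor of these interneurons, and Crhbp, which encodes a binding protein for corticotropin-releasing hormone, by 2.50 ± 0.24 and 2.50 ± 0.25. In CeA 0 were higher and 4 lower, against 13.7% and 9.58% of all windows. In SOM+ nuclei 1 was higher and 13 lower in CeA than in cortex, against 21.1% and 27.1% of all windows (list median -1.12), the reverse of the direction of Tac1, Tacr1, Tacr3 and Chodl, with Cort at -2.76 ± 0.17. Markers of other cells differed beside them: in cortex 9 of 10 glutamatergic, 6 of 10 astrocyte and 7 of 10 oligodendrocyte promoters were lower in SOM+ control than in bulk WT nuclei (30.6% of all windows) and 8 of 8 GABAergic promoters higher (31.5%). In the same cortex comparison 1 of 10 astrocyte, 1 of 10 oligodendrocyte and 1 of 10 vascular promoters were higher. In CeA 5 of 10 glutamatergic, 6 of 10 astrocyte and 4 of 10 oligodendrocyte promoters were lower (9.58% of all windows) and 4 of 8 GABAergic promoters higher (13.7%). Of 10 microglia promoters 2 were lower in cortex and 1 in CeA, and of 10 vascular promoters 4 and 0. Of 14 CeA and striatal type neuron promoters, 8 were lower and 1 higher in cortex, and 2 lower and 1 higher in CeA. Between SOM+ regions 10 of these 14 were higher and 1 lower in CeA, the direction of Tac1, Tacr1, Tacr3 and Chodl. No marker window of these lists was at 0 in any set of libraries, and the part of other cell types in the differences was not tested.

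Across the 18 libraries, the log2 CPM of Tacr1, Tacr3, Tac1 and Chodl moved together, with Pearson r from 0.757 (Tac1 and Tacr1) to 0.942 (Tacr1 and Chodl). Nos1 and Tac2 had r of 0.501 with each other and negative r with those 4, down to -0.654 for Tacr3 and Nos1. The points share libraries, depth and background, so r describes these libraries only. The promoters most like each gene were Mrpl16, Kit and Palmd for Tac1 (r 0.945 to 0.919), Fbxl7, Pdlim5 and Cobll1 for Tacr1 (0.982 to 0.974), Cep44, Fbxo8 and Dhx36 for Tacr3 (0.978 to 0.975) and Dach2, Igsf9 and Gab1 for Chodl (0.979 each). For Tac2 they were D5Ertd605e, Pglyrp2 and Caln1 (0.885 to 0.863), and for Nos1 Grrp1, Grap2 and Hsd17b1 (0.885 to 0.88).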

How the data were processed

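Accessibility was measured by ATAC-seq in 18 libraries of 8 groups. The deposited values were raw read counts per promoter window, 1 column per library, not normalized by the authors (whole numbers whose totals differ between libraries). Per the submitters' processing notes the build was mm9, and MACS2, Bowtie2, Picard 1.88, Trimmomatic 0.32 and bcl2fastq 2.16.0.10 were used. How reads were counted, and whether duplicates, strand or the Tn5 shift were handled, is not given in the sources used here. Only promoter windows were analysed here, so a library's total is its promoter count and not its sequencing depth. Of 26728 entries, 663 repeated another window and were left out.

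Counts were tested with edgeR 4.0.16 (R 4.3.3) using the quasi-likelihood F test after TMM scaling and filterByExpr by group (minimum count 10, minimum total 15). The fits held the 8 SOM+ libraries (4 residual degrees of freedom), the 10 bulk libraries (5, with labelled sex) and all 18 (9, with labelled sex). Benjamini-Hochberg adjustment ran over all windows of each of 13 comparisons, and windows were called at an adjusted p under 0.05. Levels are CPM, each count over the scaled total times 1e+06; the prior count for log2 CPM, used for likeness, was 2. The alternatives were DESeq2 1.42.0, limma 3.58.1 with cyclic loess, other scalings, no filter, a replicate block, other sets of libraries and each library left out.

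All 6 genes are named; from each list the genes with the smallest p are named, up to 3. The genes and lists were chosen with earlier results of these data known. The exact permutation tests, the ranks within a library, the multiples of the olfactory receptor median, the 8 motifs, the sex from Y-linked windows and the fits without 4 libraries were chosen after seeing the data. Titles give replicate numbers in every group. The correlation of deviations of same-numbered libraries ran from -0.346 to 0.494 where bulk groups were involved, and from 0.0732 to 0.448 between SOM+ groups, where the number is also the labelled sex. No label ties a number to shared mice, and there were only 2 numbers per SOM+ group, so the numbers were not taken to pair libraries.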

Additional observations from a re-analysis of the deposited data

Results flagged for a closer look

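For 3 promoters the difference between SOM+ control and bulk WT nuclei was itself different between CeA and cortex, by the interaction term of the edgeR fit of all 18 libraries. The log2 difference, CeA minus cortex, was 1.53 for Tac1 (95% interval 0.60 to 2.45), 1.54 for Tacr3 (0.61 to 2.48) and 1.65 for Chodl (0.65 to 2.64). In CeA the SOM+ nuclei stood at -0.30, -0.64 and -0.88 relative to bulk for these genes, and in cortex at -1.82, -2.19 and -2.53. Each of the 3 calls was lost when any one of 3 libraries was left out, with adjusted p between 0.0516 and 0.104, and those of Tac1 and Tacr3 without the 4 libraries against their sex label. The part of the background difference between libraries in this result was not tested.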

How the results depend on the processing

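The calls of Tac1, Tacr1, Tacr3 and Chodl in the cortex sort comparison (SOM+ control against bulk WT) and in the SOM+ region comparison (CeA against cortex) kept their direction and passed the test under every alternative fit. The other calls did not hold throughout, as the values beside them show. Multiples of the olfactory receptor median were not tested, and between SOM+ regions they overlapped for Tac1, Tacr1, Tacr3 and Chodl. Their mean was lower in CeA for Tacr1 (7.54 against 8.78 in cortex) and higher in CeA for Tac1, Tacr3 and Chodl. Depth limits Nos1 and Tac2 most, with counts down to 14 and 25. Sex and background differed between libraries, and the cause of the changes below was not tested. Among recomputed fold changes of the 6 genes that leave out no single library, 628 kept their direction and side of the threshold, 47 changed sign, none of them a called value, 9 came to pass the test and 6 no longer passed.

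With DESeq2, log2 fold changes changed sign to -0.0089 (Nos1) for KO in cortex and -0.0058 (Tac2) for sort by region. With DESeq2 size factors, log2 fold changes changed sign to -0.0032 (Tac2) for sort by region. Of the 6 genes, those called numbered 0 for the bulk region comparison. With the fit of SOM+ control and bulk WT libraries alone, log2 fold changes changed sign to -0.029 (Tac2) for sort by region. Of the 6 genes, those called numbered 3 for the CeA sort comparison. With all 18 libraries in 1 fit, log2 fold changes changed sign to -2.9e-05 (Tac1) for mean fear, -0.033 (Tacr3) for KO in CeA and -0.22 (Nos1) for KO in cortex. Windows then called numbered 1 for mean KO. With no sex term, log2 fold changes changed sign to -0.23 (Tac2) for KO in CeA, -0.30 (Nos1) for KO in cortex, -0.088 (Tac2) and 0.14 (Chodl) for mean KO and -0.0028 (Tac2) for sort by region. With the 4 libraries against their sex label left out, log2 fold changes changed sign to -0.24 (Tac2) for KO in CeA, -0.74 (Nos1) for KO in cortex, 0.069 (Tacr3) for mean KO, 0.14 (Tac1) and 0.69 (Nos1) for KO by region, -0.0089 (Tacr1) for the bulk region comparison, 0.50 (Nos1) for the CeA sort comparison and -0.42 (Tac2) for sort by region. Windows then called numbered 645 for the bulk region comparison, 1559 for the CeA sort comparison and 2620 for sort by region. Of the 6 genes, those called numbered 0 for the bulk region comparison, 0 for the CeA sort comparison and 1 for sort by region. With limma and cyclic loess, log2 fold changes changed sign to -0.050 (Chodl) for fear in cortex, -0.030 (Tac1) and -0.0026 (Chodl) for mean fear, -0.010 (Tacr3) for KO in CeA, -0.26 (Nos1) for KO in cortex, 0.19 (Nos1) for KO by region and 0.032 (Nos1) for the CeA sort comparison. With no filter on low counts, members called numbered 2 for the CeA sort comparison. With a replicate block, log2 fold changes changed sign to -0.31 (Tacr3), 0.29 (Nos1) and -0.12 (Chodl) for KO in CeA, -0.020 (Tacr1) and 0.40 (Nos1) for mean KO and -0.0055 (Tac2) for sort by region. Windows then called numbered 3 for KO in CeA, 3 for KO in cortex and 3 for mean KO. Of the 6 genes, those called numbered 2 for the CeA sort comparison. With sex from Y-linked windows, log2 fold changes changed sign to -0.30 (Tac2) for KO in CeA, -0.017 (Tac2), 0.019 (Tacr1), 0.033 (Tacr3), -0.68 (Nos1) and 0.058 (Chodl) for KO in cortex and -0.16 (Tac2), 0.17 (Tacr3) and 0.25 (Chodl) for mean KO. With total count scaling, log2 fold changes changed sign to 0.025 (Tac2) for mean fear, 0.0012 (Nos1) for the SOM+ region comparison, -0.0089 (Tacr3) for KO in CeA, 0.027 (Tacr1) for KO in cortex and 0.054 (Chodl) for the bulk region comparison. Of the 6 genes, those called numbered 0 for the bulk region comparison and 2 for the CeA sort comparison. The replicate block used numbers that no label ties to shared mice. Same-numbered libraries correlated at -0.346 to 0.494 where bulk groups were involved and at 0.0732 to 0.448 between SOM+ groups, where the number is also the labelled sex, so that the block there is a sex term; with it 0 windows were called under fear. The block changed no call of the 6 genes other than Chodl for the CeA sort comparison and Nos1 for the cortex sort comparison. Promoter enrichment, the median level at 86 cytosolic ribosomal protein genes divided by the one at 1120 olfactory receptor genes, averaged 27.9 in CeA SOM+, 62.1 in cortex SOM+, 15.6 in CeA bulk and 11.8 in cortex bulk libraries. Over the median of all windows it averaged 3.69, 4.15, 3.05 and 2.53 in the same order.

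Leaving out 1 library at a time gave the following ranges. Windows called ranged from 0 to 4 for fear in CeA, 0 to 3 for mean fear, 0 to 3 for fear by region, 0 to 3 for fear in cortex, 889 to 6991 for the bulk region comparison, 0 to 1 for KO in CeA, 0 to 984 for KO in cortex, 0 to 126 for mean KO, 0 to 2 for KO by region, 2321 to 7422 for the CeA sort comparison and 3944 to 7947 for sort by region. Members called ranged from 0 to 1 for the bulk region comparison, 0 to 2 for KO in cortex, 0 to 3 for the CeA sort comparison and 0 to 5 for sort by region. For fear in CeA, log2 fold changes ran from -0.078 to 0.27 (Chodl), -0.29 to 0.046 (Tac1) and -0.79 to 0.35 (Tac2). For mean fear, log2 fold changes ran from -0.15 to 0.15 (Tac1), -0.34 to 0.24 (Tac2), -0.24 to 0.29 (Chodl) and -0.089 to 0.19 (Tacr3). For fear by region, log2 fold changes ran from -0.36 to 0.69 (Chodl), -0.91 to 0.22 (Tac2) and -0.51 to 0.11 (Tac1). For the SOM+ region comparison, log2 fold changes ran from -0.47 to 0.0074 (Nos1). For fear in cortex, log2 fold changes ran from -0.59 to 0.47 (Chodl), -0.21 to 0.41 (Tac1), -0.12 to 0.36 (Tac2) and -0.47 to 0.10 (Tacr3). For mean KO, log2 fold changes ran from -0.41 to 0.039 (Tacr3), -0.86 to 0.74 (Nos1), -0.16 to 0.31 (Tacr1), -0.42 to 0.079 (Chodl) and -0.086 to 0.75 (Tac2). For KO in CeA, log2 fold changes ran from -0.19 to 0.24 (Tacr3), -1.35 to 0.29 (Nos1), -0.055 to 0.75 (Tac2), -0.13 to 0.38 (Tacr1) and -0.33 to 0.15 (Chodl). For KO by region, log2 fold changes ran from -0.37 to 0.21 (Tac1), -0.98 to 0.66 (Nos1), -0.0076 to 0.81 (Tacr3) and -0.86 to 0.063 (Tac2). For KO in cortex, log2 fold changes ran from -0.39 to 1.20 (Nos1), -0.36 to 0.24 (Tacr1), -0.82 to 0.042 (Tacr3), -0.85 to 0.013 (Chodl) and -0.12 to 0.80 (Tac2). For the bulk region comparison, log2 fold changes ran from -0.12 to 0.17 (Tacr1) and -0.25 to 0.16 (Chodl). For the CeA sort comparison, log2 fold changes ran from -0.087 to 0.73 (Tac2) and -1.20 to 0.53 (Nos1). For sort by region, log2 fold changes ran from -0.47 to 0.35 (Tac2).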
